A study of Homo sapiens with 18 samples.

Results

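The 3 FOXO transcription factors FOXO1, FOXO3 and FOXO4 and 7 of their direct target genes (SESN1, SESN3, CCNG2, BCL6, CITED2, TNFSF10 and PIK3IP1) were followed by RNA-seq in MDA-MB-231 cells. These 10 genes were taken by symbol from the 57448 genes counted, and each matched 1 Ensembl identifier. MDA-MB-231 is an established human triple negative breast cancer line with mesenchymal features, and the study asked how loss of GPS2, a small protein best known as a subunit of the NCoR/SMRT corepressor complex, changes AKT signaling in it. There were 18 libraries in 6 groups of 3. WT was the untreated parental line without modification. KO1 and KO2 were untreated GPS2 knockout lines made with sgRNA set 1 and sgRNA set 2, which cut the same exons of GPS2, and each was kept after puromycin selection of cells carrying a lentiviral Cas9 vector as a mixed pool and not as a clone. The line labelled myrAKT was untreated and carried a retroviral vector for myristoylated AKT1, a form that is held at the membrane and is active without upstream signals. The groups KO1+MK and KO2+MK were the knockout lines given 10 µM of MK2206, an allosteric AKT inhibitor, for 4 h. WT cells had gone through neither transduction nor selection, no vehicle is named for the untreated cells, and WT or myrAKT cells given MK2206 were not analysed here.

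FOXO factors stand at the end of the pathway from insulin and growth factor receptors through PI3K to AKT. Active AKT phosphorylates them, the phosphorylated proteins are bound by 14-3-3 proteins and kept out of the nucleus, and transcription of their targets drops. When AKT is inhibited they return to the nucleus and switch on genes that slow the cell cycle, limit oxidative stress, promote cell death and restrain PI3K and mTORC1 signaling. The control of FOXO proteins is therefore largely a matter of phosphorylation and location, which counts of RNA do not measure. Among the genes followed here, SESN1 and SESN3 encode sestrins, CCNG2 an atypical cyclin that holds back the cell cycle, BCL6 a transcriptional repressor, CITED2 a partner of the coactivators CBP and p300, TNFSF10 the death ligand TRAIL, and PIK3IP1 a membrane protein that inhibits PI3K.

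FOXO factors bind DNA at a core that is usually written GTAAACA, with GTAAATA as a common form. In the RefSeq promoter table for GRCh38.p14, which gives 250 bases before and 50 bases from each annotated start site, all 10 genes had at least 1 window and 19 windows in all. GTAAACA on either strand stood in 2 of the 19 windows and GTAAATA in 1, against 3.42% and 2.67% of the 35116 windows of all genes. Counted by gene, 3 of the 10 genes and 7.25% of 27305 genes held either form. These shares by gene are not like for like, because the 10 genes had more windows per gene than all genes did. The 3 windows with a match are shown because the genes behind them responded differently in the libraries, together with the window of CCNG2, a gene without a match that was called lower in both knockouts and higher in both treated lines. Each is read 5′ to 3′ on the strand of its gene with the match in capitals, and positions count the start site as +1. A match describes these letters only and was not tested as a binding site, and these windows do not cover enhancers or introns.
FOXO4, chrX:71095601-71095900, plus strand, GTAAACA from position +24: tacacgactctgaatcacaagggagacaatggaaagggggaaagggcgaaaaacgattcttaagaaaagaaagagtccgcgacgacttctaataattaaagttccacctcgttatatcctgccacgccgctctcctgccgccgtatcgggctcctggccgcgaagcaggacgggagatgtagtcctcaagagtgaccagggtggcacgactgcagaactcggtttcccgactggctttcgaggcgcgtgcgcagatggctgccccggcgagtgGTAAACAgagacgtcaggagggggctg
SESN1, chr6:109008939-109009238, minus strand, GTAAATA from position -68: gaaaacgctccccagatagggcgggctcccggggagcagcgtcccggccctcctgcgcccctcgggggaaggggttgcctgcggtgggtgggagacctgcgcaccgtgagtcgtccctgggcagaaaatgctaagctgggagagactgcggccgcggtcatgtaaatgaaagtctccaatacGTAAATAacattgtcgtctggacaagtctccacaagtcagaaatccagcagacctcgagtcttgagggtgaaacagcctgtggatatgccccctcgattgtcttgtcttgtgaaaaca
PIK3IP1, chr22:31292439-31292738, minus strand, GTAAACA on the opposite strand, read here as TGTTTAC from position +17: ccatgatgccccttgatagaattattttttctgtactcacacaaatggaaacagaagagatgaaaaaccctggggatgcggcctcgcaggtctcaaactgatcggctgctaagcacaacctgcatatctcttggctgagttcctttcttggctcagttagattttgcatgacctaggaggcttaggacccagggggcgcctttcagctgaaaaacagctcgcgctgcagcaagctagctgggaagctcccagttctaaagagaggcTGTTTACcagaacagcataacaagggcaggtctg
CCNG2, chr4:77156957-77157256, plus strand, no match: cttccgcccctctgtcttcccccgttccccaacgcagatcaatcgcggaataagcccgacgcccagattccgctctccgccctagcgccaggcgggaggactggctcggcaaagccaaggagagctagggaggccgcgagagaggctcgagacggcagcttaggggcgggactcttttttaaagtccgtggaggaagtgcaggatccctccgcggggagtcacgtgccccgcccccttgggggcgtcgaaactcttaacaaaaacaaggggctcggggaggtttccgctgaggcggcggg

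Library totals ran from 23419198 to 39319910 reads assigned to genes, and the treated libraries (23419198 to 29939536) were shallower than the untreated ones (30287210 to 39319910). Levels are given as CPM, counts-per-million of the library total scaled by TMM factors, as mean ± SD of 3 libraries or library by library, and log2 fold changes are given ± SE. The summed level of 7 markers of this line (VIM, CD44, MSN, AXL, CAV1, PLAUR and FOSL1) was 5036 to 5225 CPM in WT, 5036 to 5523 CPM over the untreated libraries and lower in every treated one, at 4261 to 4786 CPM in KO1+MK and 4658 to 4957 in KO2+MK. The estrogen receptor gene ESR1 was at 0.763 ± 0.07296 to 1.12 ± 0.252 CPM in the lowest and highest group, and 7 luminal, epithelial and hormone receptor markers summed to 22.2 to 25.0 CPM in WT and 11.5 to 11.8 CPM in myrAKT. Of 4 blood, endothelial and fibroblast markers, PTPRC, HBB and PDGFRA summed to at most 0.351 CPM in any library, while the endothelial marker PECAM1 stood at 21.1 ± 1.29 CPM in myrAKT against 3.57 ± 0.181 in WT. GPS2 itself was at 4.56 ± 0.278 CPM in WT, 4.49 ± 0.0366 in KO1 and 6.02 ± 0.123 in KO2 (n = 3 each), so its RNA level does not check the knockout labels. AKT1 was at 135 ± 0.988 CPM in WT and 230.1 ± 12.1 in myrAKT (log2 fold change 0.77 ± 0.044, edgeR adjusted p = 4.27e-09).

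In both GPS2 knockout lines CCNG2, FOXO4, PIK3IP1 and TNFSF10 were lower than in WT, FOXO1 and BCL6 were lower by a smaller step, and CITED2 was higher. SESN3 was higher in KO2 only, and the pools differed. In the text a gene rose or fell when the edgeR adjusted p was at most 0.001, and was called when the change was also at least 1.5-fold. By that rule 5 of the 10 genes were called in KO1 against WT, where 13.9% of the 15587 genes tested were called, and 5 of 10 in KO2 against WT, where 16.7% were. Without the minimum fold, 7 of the 10 rose or fell in KO1 (41.7% of all genes) and 8 in KO2 (43.1%). With the 6 knockout libraries as 1 group, 3 of 10 were called (12.7% of all genes), namely FOXO4, CCNG2 and PIK3IP1, all lower, and 6 rose or fell (32.1%). The libraries of KO and WT did not overlap for 8 of the 10 genes, as for 55.9% of all genes. The median log2 fold change of the 10 genes was -0.52 in KO against WT, beside -0.0029 for all genes tested. Nothing in the labels says whether the 3 replicates of a group were separate cultures, so p-values measure only the spread between these libraries. The summed luminal, epithelial and hormone receptor markers were below every WT library in both knockouts, at 20.2 to 21.4 CPM in KO1 and 17.2 to 18.2 in KO2, and PECAM1 was at 1.72 ± 0.169 CPM in KO1 and 3.97 ± 0.204 in KO2. The part of these markers in the changes was not tested. The counts come from mixed pools, so a change in some cells and a change in every cell cannot be told apart.

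**Figure D1:**
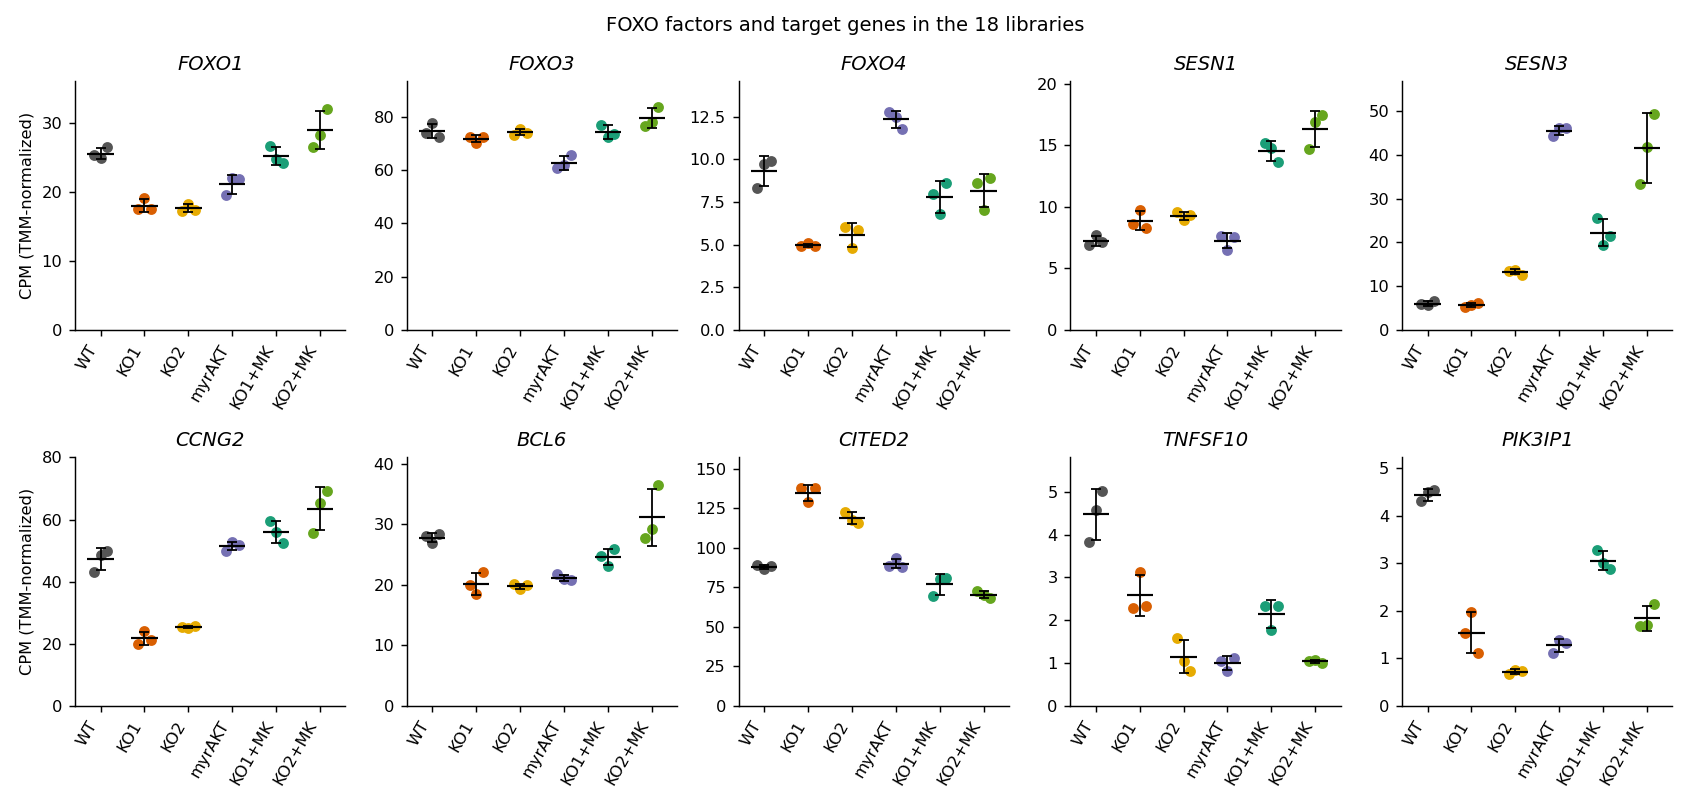
Level of each of the 10 genes in each library, in CPM normalized by TMM factors, on axes that start at 0. Points are the 3 libraries of a group, and the bar and whiskers are their mean ± SD. CCNG2 lies between 19.96 and 25.8 CPM in the 6 untreated knockout libraries and at 43.1 CPM or more in all others, and SESN3 is highest in myrAKT and KO2+MK.

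The FOXO genes themselves did not move together. FOXO3, the most abundant FOXO mRNA per exon length, had 73.9, 77.7 and 72.4 CPM in the 3 WT libraries, 72.4, 70.1 and 72.5 in KO1 and 73.01, 75.3 and 73.96 in KO2. The knockout and WT libraries overlapped in KO1 and KO2, and the log2 fold change of KO against WT was -0.054 ± 0.036 (edgeR adjusted p = 0.218), with a 95% interval of -0.13 to 0.025. In myrAKT the FOXO3 level was 60.6, 61.8 and 65.6 CPM, below every other library, and FOXO3 fell by less than 1.5-fold (log2 fold change -0.26 ± 0.048, edgeR adjusted p = 4.51e-04). After MK2206 it stood at 77.02, 72.2 and 73.4 CPM in KO1+MK and 76.5, 78.2 and 83.7 in KO2+MK, and did not pass the threshold in either line. FOXO3B, a near copy of FOXO3 on another chromosome, had 90 to 167 counts per library beside 1857 to 2929 for FOXO3, and reads that fit both cannot be assigned with certainty.

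FOXO1 had 25.4, 24.9 and 26.5 CPM in WT. Its levels were 17.5, 19.1 and 17.5 CPM in KO1 and 17.3, 18.3 and 17.4 in KO2, all 6 below the WT libraries. FOXO1 fell in both lines, by 1.44-fold in KO1 and 1.45-fold in KO2, just short of the minimum fold (log2 fold change of KO against WT -0.54 ± 0.048, edgeR adjusted p = 2.80e-06). With MK2206 it rose to 26.6, 24.8 and 24.3 CPM in KO1+MK and 26.6, 28.3 and 32.1 in KO2+MK, overlapping WT in the first line and above it in the second. The treated libraries lay above all untreated knockout libraries, with log2 fold changes of 0.51 ± 0.061 (edgeR adjusted p = 2.38e-05) in KO1 and 0.73 ± 0.069 (edgeR adjusted p = 9.05e-07) in KO2. In myrAKT FOXO1 was at 19.5, 22.0 and 21.9 CPM, between the knockouts and WT, and the change from WT did not pass the threshold (-0.28 ± 0.063, edgeR adjusted p = 0.00192).

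FOXO4 was the scarcest of the 3 factors per exon length, with 8.31, 9.73 and 9.93 CPM in WT. It had 4.89, 5.07 and 4.94 CPM in KO1 and 6.06, 4.78 and 5.88 in KO2, below WT in all 6 libraries, and was called lower in KO1 (log2 fold change -0.93 ± 0.093, edgeR adjusted p = 5.77e-07) and in KO2 (-0.75 ± 0.10, edgeR adjusted p = 2.78e-05). The direction differed in myrAKT, where the 3 libraries at 12.8, 12.5 and 11.8 CPM were the highest of the series, although the difference from WT missed the threshold (0.40 ± 0.086, edgeR adjusted p = 0.00135). With MK2206 the level went to 7.96, 6.81 and 8.64 CPM in KO1+MK and 8.59, 7.04 and 8.89 in KO2+MK. FOXO4 was called higher in KO1+MK (0.68 ± 0.10, edgeR adjusted p = 1.76e-04), a call that was lost when any KO1 library or KO1+MK replicate 3 was left out (adjusted p from edgeR 0.00108 to 0.00187). In KO2+MK it rose by 1.49-fold, at the edge of the minimum fold (0.58 ± 0.11, edgeR adjusted p = 6.18e-04), and was called without KO2+MK replicate 2.

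The 2 sestrins, which limit mTORC1 activity and take part in the response to oxidative stress, both rose with MK2206 and differed elsewhere. SESN1 had 6.88, 7.698 and 7.14 CPM in WT, 8.60, 9.74 and 8.31 in KO1 and 9.54, 8.95 and 9.303 in KO2. Each knockout library lay above the WT libraries, yet the differences of 0.28 ± 0.088 (edgeR adjusted p = 0.0131) and 0.35 ± 0.078 (edgeR adjusted p = 0.00149) on the log2 scale did not pass the threshold. In the treated lines SESN1 rose to 15.2, 14.8 and 13.6 CPM in KO1+MK and 14.7, 16.9 and 17.5 in KO2+MK, and was called higher in both (0.73 ± 0.081, edgeR adjusted p = 1.17e-05 and 0.84 ± 0.078, edgeR adjusted p = 7.67e-07). The level in myrAKT was 7.66, 6.52 and 7.57 CPM and overlapped that of WT, with a log2 fold change of -0.0010 ± 0.099 (edgeR adjusted p = 0.994) whose sign changed with the scaling (0.042 and 0.043 with upper-quartile factors and library totals).

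SESN3 had the largest ratio of highest to lowest library among the 10 genes. It had 5.88, 5.64 and 6.55 CPM in WT and 5.31, 5.61 and 6.16 in KO1, 2 overlapping groups, but 13.5, 13.8 and 12.6 CPM in KO2. SESN3 was called higher in KO2 (log2 fold change 1.13 ± 0.082, edgeR adjusted p = 5.83e-08) and not in KO1 (-0.10 ± 0.099, edgeR adjusted p = 0.3799), and the pools differed by -1.24 ± 0.078 (edgeR adjusted p = 4.61e-09). With MK2206 it stood at 25.5, 19.4 and 21.5 CPM in KO1+MK and 33.3, 41.8 and 49.3 in KO2+MK, above every untreated knockout library. These were rises of 3.95-fold in KO1 (1.98 ± 0.11, edgeR adjusted p = 3.20e-08) and 3.16-fold in KO2 (1.66 ± 0.11, edgeR adjusted p = 3.09e-08). In myrAKT, where AKT is active without upstream signals, SESN3 overlapped its level in KO2+MK, with 44.3, 46.2 and 46.1 CPM. That was 7.52-fold above WT (log2 fold change 2.91 ± 0.067, edgeR adjusted p = 4.78e-13), the largest change among the 10 genes in any comparison of groups of 3. An antisense RNA, LNCRNA-IUR, shares 98 of the 10578 exon bases of SESN3 and had a mean of 34.0 counts per library, and with the strand setting not given in the sources used here reads from the shared bases cannot be told apart.

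CCNG2, a cyclin that is high in cells leaving the cell cycle and a widely used readout of FOXO activity, fell in both knockouts and rose again in both treated lines. It had 43.1, 48.6 and 49.9 CPM in WT, 19.96, 23.9 and 21.1 in KO1 and 25.3, 25.1 and 25.8 in KO2. Every knockout library was below every WT library, with fold changes of 2.21 lower in KO1 (-1.14 ± 0.068, edgeR adjusted p = 2.92e-09) and 1.87 lower in KO2 (-0.90 ± 0.058, edgeR adjusted p = 1.94e-08). With MK2206 it rose to 59.6, 55.9 and 52.4 CPM in KO1+MK and 55.8, 65.3 and 69.3 in KO2+MK, above the highest WT library in all 6. The rise was 2.63-fold in KO1 (1.39 ± 0.070, edgeR adjusted p = 1.61e-08) and 2.53-fold in KO2 (1.34 ± 0.068, edgeR adjusted p = 3.13e-09). In myrAKT its level of 50.0, 52.7 and 51.7 CPM was not below WT (0.12 ± 0.058, edgeR adjusted p = 0.103, 95% interval -0.0072 to 0.24).

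BCL6, a zinc finger repressor that recruits NCoR, SMRT and BCOR, had 28.1, 26.9 and 28.4 CPM in WT, 19.99, 18.5 and 22.04 in KO1, 20.1, 19.3 and 19.9 in KO2 and 21.7, 21.01 and 20.8 in myrAKT. It fell in all 3 lines by less than 1.5-fold, with log2 fold changes of -0.48 ± 0.061 (edgeR adjusted p = 6.60e-06), -0.50 ± 0.048 (edgeR adjusted p = 7.94e-07) and -0.40 ± 0.054 (edgeR adjusted p = 2.11e-05), and no library of these lines reached the lowest WT value. With MK2206 it was at 24.8, 23.1 and 25.9 CPM in KO1+MK and 27.8, 29.2 and 36.5 in KO2+MK. The gain was called in KO2 (0.68 ± 0.084, edgeR adjusted p = 1.14e-05), where replicate 3 was the highest at 36.5 CPM and the change without it was 0.54, under the minimum fold. In KO1 the gain missed the threshold (0.31 ± 0.070, edgeR adjusted p = 0.002702).

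CITED2, which competes with hypoxia-inducible factors for CBP and p300, moved in the opposite direction to CCNG2, FOXO1 and FOXO4 and had the highest level per exon length of the 10. It had 88.9, 86.7 and 88.8 CPM in WT, 138, 129 and 138 in KO1 and 123, 118 and 116 in KO2. All knockout libraries were above WT, by 1.51-fold in KO1 (0.60 ± 0.035, edgeR adjusted p = 2.69e-09) and 1.34-fold in KO2 (0.43 ± 0.034, edgeR adjusted p = 1.68e-07). The KO1 value lay so near the minimum fold that it was no longer called without KO1 replicate 3 (0.58) or with upper-quartile factors (0.57) or library totals (0.56). After MK2206 CITED2 fell to 69.4, 80.1 and 81.2 CPM in KO1+MK and 72.7, 69.9 and 68.2 in KO2+MK, below the WT libraries in all 6. It was called lower in both lines (-0.78 ± 0.049, edgeR adjusted p = 9.91e-08 and -0.74 ± 0.040, edgeR adjusted p = 4.67e-09). With myrAKT it was at 88.6, 93.3 and 88.1 CPM and overlapped WT (0.026 ± 0.041, edgeR adjusted p = 0.625).

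TNFSF10 and PIK3IP1 had the fewest counts of the 10 genes, and every library of every other group was below WT for both. TNFSF10, the TRAIL ligand that triggers apoptosis through death receptors, had 3.83, 4.57 and 5.02 CPM in WT, 2.29, 3.13 and 2.32 in KO1, 1.57, 1.05 and 0.816 in KO2 and 1.05, 0.799 and 1.11 in myrAKT, or 25 to 187 counts per library. It was called lower in KO2 (-1.98 ± 0.20, edgeR adjusted p = 1.26e-06) and in myrAKT (-2.17 ± 0.18, edgeR adjusted p = 1.74e-07). In KO1 it was also called lower (-0.82 ± 0.15, edgeR adjusted p = 1.87e-04), but not without WT replicate 3, KO1 replicate 1 or KO1 replicate 3 (adjusted p from edgeR 0.00209 to 0.00213). The pooled comparison gave -1.28 ± 0.31 (edgeR adjusted p = 0.00413), short of the threshold, and was called by DESeq2, without the filter, with all 18 libraries in 1 fit and without KO1 replicate 2. MK2206 left it at 2.32, 1.78 and 2.33 CPM in KO1+MK and 1.04, 1.08 and 1.002 in KO2+MK. These libraries overlapped the untreated ones, and the intervals of the change, -0.64 to 0.16 in KO1 and -0.65 to 0.41 in KO2 on the log2 scale, were too wide to say that it did not change.

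PIK3IP1, which binds the catalytic subunit of PI3K and dampens its activity, had 4.301, 4.49 and 4.54 CPM in WT. It was at 1.53, 1.97 and 1.105 CPM in KO1, 0.657, 0.746 and 0.734 in KO2 and 1.11, 1.37 and 1.32 in myrAKT, so that none of these 9 libraries came near WT. PIK3IP1 was called lower in all 3, by 2.93-fold in KO1 (-1.55 ± 0.16, edgeR adjusted p = 8.77e-07), 6.23-fold in KO2 (-2.64 ± 0.15, edgeR adjusted p = 6.30e-09) and 3.51-fold in myrAKT (-1.81 ± 0.15, edgeR adjusted p = 1.88e-07). With MK2206 it reached 3.28, 2.997 and 2.88 CPM in KO1+MK and 1.68, 1.69 and 2.14 in KO2+MK, above the untreated libraries of its own line and below WT. The increase was called in KO2 (1.38 ± 0.20, edgeR adjusted p = 6.62e-05) and narrowly missed in KO1 (1.01 ± 0.20, edgeR adjusted p = 0.00122), where it was called by DESeq2, with either other filter, with all 18 libraries in 1 fit and without KO1 replicate 2 or KO1+MK replicate 1. It had 23 to 169 counts per library.

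The myrAKT line was made as a reference for full AKT activation, to ask how far loss of GPS2 goes towards it. In myrAKT against WT, PIK3IP1 and TNFSF10 were called lower and SESN3 higher, 3 of the 10 genes where 13.8% of all genes were called. FOXO3 and BCL6 fell by less, which makes 5 of 10 past the threshold without the fold (30.0% of all genes), and the libraries did not overlap for 8 of the 10 (60.8%). The median log2 fold change of the 10 genes was -0.13, beside 0.016 for all genes. The myrAKT and knockout comparisons share the 3 WT libraries, so their values are set side by side and not correlated. PECAM1 and the summed luminal and epithelial markers also differed between myrAKT and WT, as given above, and their part in these changes was not tested.

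The direct comparison of the knockout libraries with myrAKT was added after the data had been seen. CCNG2, FOXO4 and SESN3 were called lower in KO than in myrAKT, 3 of 10 genes where 16.2% of all genes were called. The log2 differences were -1.14 ± 0.078 (edgeR adjusted p = 2.79e-07) for CCNG2, -1.24 ± 0.086 (edgeR adjusted p = 3.10e-07) for FOXO4 and -2.28 ± 0.28 (edgeR adjusted p = 2.41e-05) for SESN3. CITED2 was higher in KO by 1.39-fold (0.48 ± 0.058, edgeR adjusted p = 2.45e-05), and 4 of 10 genes passed the threshold without the fold (35.8% of all genes). For PIK3IP1 and TNFSF10 the difference was -0.19 ± 0.33 (edgeR adjusted p = 0.634) and 0.89 ± 0.39 (edgeR adjusted p = 0.0636), with 95% intervals of -0.91 to 0.53 and 0.042 to 1.74.

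**Figure D2:**
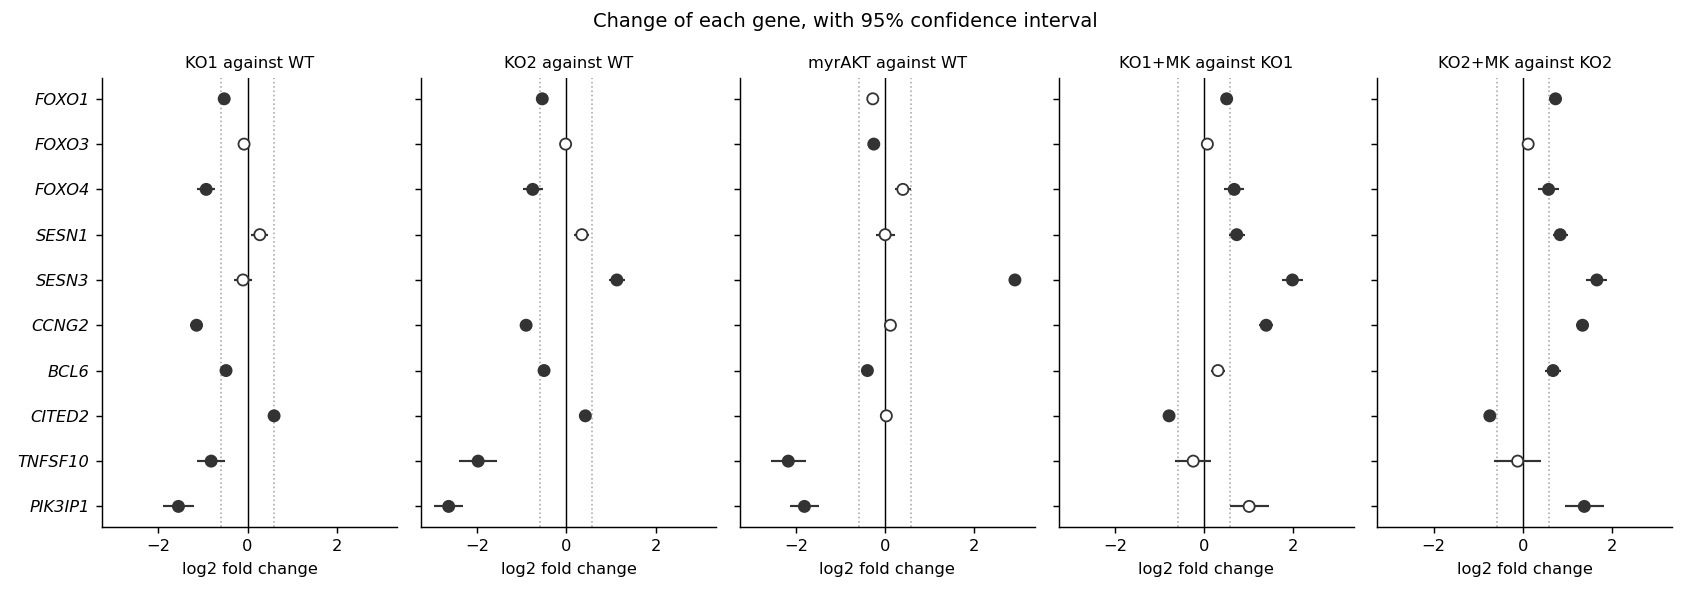
Log2 fold change of each gene (x axis) in 5 comparisons of 3 libraries with 3, with its 95% confidence interval from edgeR as the bar. Filled points have an adjusted p of at most 0.001 and dotted lines mark 1.5-fold. PIK3IP1 and TNFSF10 lie left of 0 in all 3 comparisons with WT, while CCNG2 and FOXO4 do so in the knockouts only, with values of 0.12 and 0.40 in myrAKT, and CITED2 is the gene that fell with MK2206.

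Treatment with MK2206 asked which of the differences in the knockout lines depend on AKT activity. FOXO1, FOXO4, SESN1, SESN3 and CCNG2 were called higher and CITED2 lower in treated against untreated knockout cells when the lines were pooled, 6 of 10 genes where 6.53% of all genes were called. BCL6 rose by 1.42-fold, so that 7 of 10 passed the threshold without the fold (21.5% of all genes), and the libraries did not overlap for 7 of the 10 (27.4%). By line, 5 of 10 were called in KO1+MK (5.01% of all genes) and 7 of 10 in KO2+MK (7.06%). The median log2 fold change of the 10 genes was 0.62, beside -0.0031 for all genes. The pooled calls of FOXO1 and FOXO4 were lost without KO2+MK replicate 3 (0.56 and 0.58, under the minimum fold), and PIK3IP1, not called in the pooled comparison (1.13 ± 0.28, edgeR adjusted p = 0.00373), was called when the line was a covariate (edgeR adjusted p = 1.53e-06), by DESeq2, without the filter, with all 18 libraries in 1 fit and without KO1 replicate 2. The treated libraries were also the shallower ones, with the totals given above, and the summed markers of the line were lower in them (4261 to 4957 CPM against 5173 to 5413 in the untreated knockouts). Among these markers PLAUR alone had a higher mean in them, 92.6 CPM against 57.0 in the untreated knockouts. The part of the depth or of these markers in these changes was not tested.

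Set against WT, the treated knockout cells stood at different points for different genes. FOXO1, FOXO3 and BCL6 in the 6 treated libraries had log2 differences from WT of 0.077 ± 0.081, 0.034 ± 0.051 and -0.0016 ± 0.12 (SE), with 95% intervals of -0.10 to 0.25, -0.078 to 0.15 and -0.25 to 0.25. The pooled BCL6 value averages 2 unlike lines. KO1+MK, at 23.1 to 25.9 CPM, lay below every WT library (26.9 to 28.4), and KO2+MK was at 27.8 to 36.5. FOXO4 remained at -0.23 ± 0.10 (edgeR adjusted p = 0.0744) and CCNG2 at 0.33 ± 0.089 (edgeR adjusted p = 0.00659), neither past the threshold. CITED2, below WT in all 6 treated libraries, had a difference of -0.27 ± 0.057 (edgeR adjusted p = 0.00156) that also missed it. SESN1 and SESN3 were called higher than WT (1.08 ± 0.093, edgeR adjusted p = 1.84e-06 and 2.40 ± 0.30, edgeR adjusted p = 3.12e-05). TNFSF10 was called lower (-1.51 ± 0.26, edgeR adjusted p = 3.07e-04), a call that was lost when any WT library was left out (adjusted p from edgeR 0.00109 to 0.00296), and PIK3IP1 was lower at -0.88 ± 0.20 (edgeR adjusted p = 0.00235), and was called by DESeq2, without the filter, with all 18 libraries in 1 fit and without KO1+MK replicate 1. In all, 3 of the 10 genes were called, where 15.0% of all genes were. This comparison shares its libraries with the preceding ones, and the treated parental line that would separate the drug from the knockout was not analysed here.

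**Figure D3:**
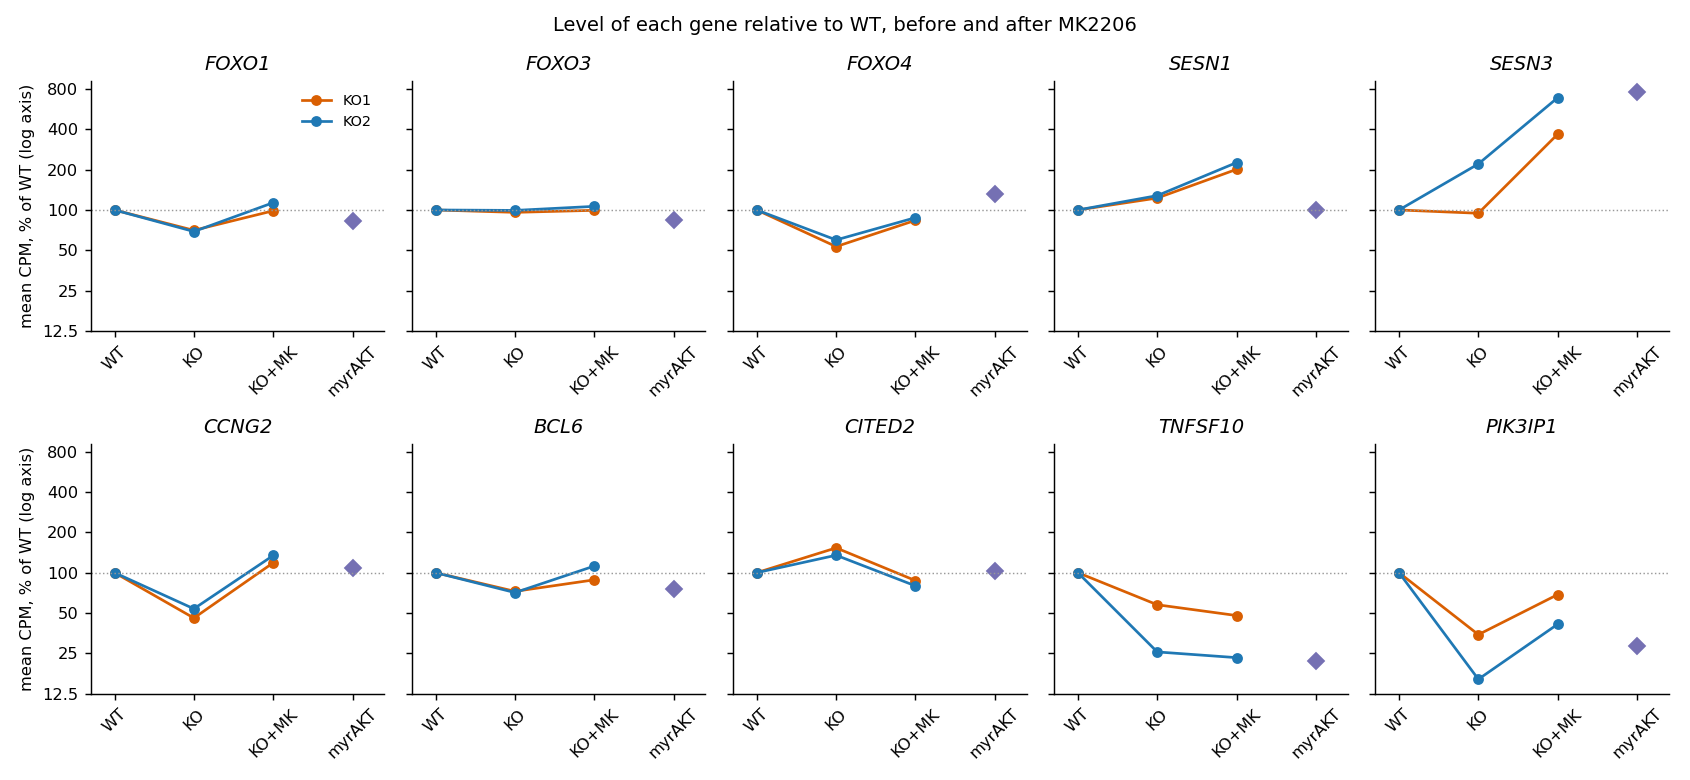
Mean level of each gene as a percent of its WT mean on a log axis, for WT, the untreated and the treated knockout (a line for each pool, means of 3 libraries) and myrAKT (diamond). CCNG2 and FOXO4 go down and come back, SESN3 ends far above WT in both lines, CITED2 goes up and then down, and TNFSF10 stays low, with 1.04 CPM in KO2+MK against 4.48 in WT.

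The 2 knockout pools differed for some genes before treatment. SESN3 was called lower and TNFSF10 higher in KO1 than in KO2, 2 of 10 genes where 2.62% of all genes were called. The TNFSF10 difference of 1.16 ± 0.21 (edgeR adjusted p = 4.53e-04) was lost without KO1 replicate 1, 2 or 3 or KO2 replicate 3 (adjusted p from edgeR 0.00109 to 0.00421). PIK3IP1 was 2.13-fold higher in KO1 without passing the threshold (1.09 ± 0.23, edgeR adjusted p = 0.00174), which it did pass without the filter, with all 18 libraries in 1 fit and without KO1 replicate 3, and CITED2 was 1.13-fold higher in KO1 (0.17 ± 0.034, edgeR adjusted p = 8.78e-04). CCNG2 was lower in every KO1 library than in any KO2 library, and the difference of -0.24 ± 0.059 (edgeR adjusted p = 0.00439), with a 95% interval of -0.37 to -0.12, missed the threshold. For FOXO1, FOXO3, FOXO4, SESN1 and BCL6 the intervals of the difference spanned 0, the widest being that of FOXO4 at -0.39 to 0.044. The effect of MK2206 was then compared between the pools as an interaction. None of the 10 genes was called by edgeR or DESeq2 (0% of all genes with edgeR), and 2 had an unadjusted p under 0.05, BCL6 and FOXO1, with differences of -0.37 ± 0.12 and -0.23 ± 0.097 (SE) on the log2 scale, both smaller in KO1 (edgeR adjusted p = 0.382 and 0.559). For SESN3 the effect differed by 0.32 ± 0.18 (SE), with a 95% interval of -0.060 to 0.70.

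Of 33 other genes described as FOXO targets, 27 could be tested. SOD2 matched no identifier, and those too low included FASLG, G6PC1, PCK1 and TRIM63. In KO against WT 12 of the 27 were called lower and 1, IGFBP1, higher (8.59% and 4.07% of all genes), with a median log2 fold change of -0.46. The 27 include CCND1 and CCND2, cyclin genes that FOXO factors are known to repress. The counts and medians given here do not set them apart. CCND2 went from 178 CPM in WT to 62.3 in KO, and CCND1 from 684 to 818. The largest falls were those of PDK4, which restrains pyruvate oxidation (from 10.6 to 2.57 CPM, -2.06 ± 0.19, edgeR adjusted p = 3.83e-06), TXNIP, an inhibitor of thioredoxin and glucose uptake (from 195 to 48.1 CPM, -2.04 ± 0.097, edgeR adjusted p = 7.67e-08), and FBXO32, a ubiquitin ligase known from muscle atrophy (from 32.5 to 10.3 CPM, -1.67 ± 0.062, edgeR adjusted p = 3.20e-08). With MK2206 11 of the 27 were called higher and 2 lower (4.50% and 2.03% of all genes), with a median of 0.41. CDKN1A, the cyclin-dependent kinase inhibitor p21, went from 33.3 to 119 CPM (1.86 ± 0.11, edgeR adjusted p = 3.80e-08), KLHL24 from 26.9 to 87.98 (1.73 ± 0.12, edgeR adjusted p = 9.48e-08) and FBXO32 from 10.3 to 27.2 (1.42 ± 0.12, edgeR adjusted p = 7.23e-07). In myrAKT 5 were called lower and 2 higher (8.83% and 4.94% of all genes), and the median was 0.0074. CCND2, a cyclin that FOXO factors are known to repress, dropped from 178 to 2.68 CPM (-6.07 ± 0.079, edgeR adjusted p = 1.40e-15). S1PR1, a lipid receptor, fell from 5.12 to 1.63 CPM (-1.65 ± 0.16, edgeR adjusted p = 9.47e-07) and TXNIP from 195 to 78.4 (-1.32 ± 0.14, edgeR adjusted p = 1.68e-06).

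**Figure D4:**
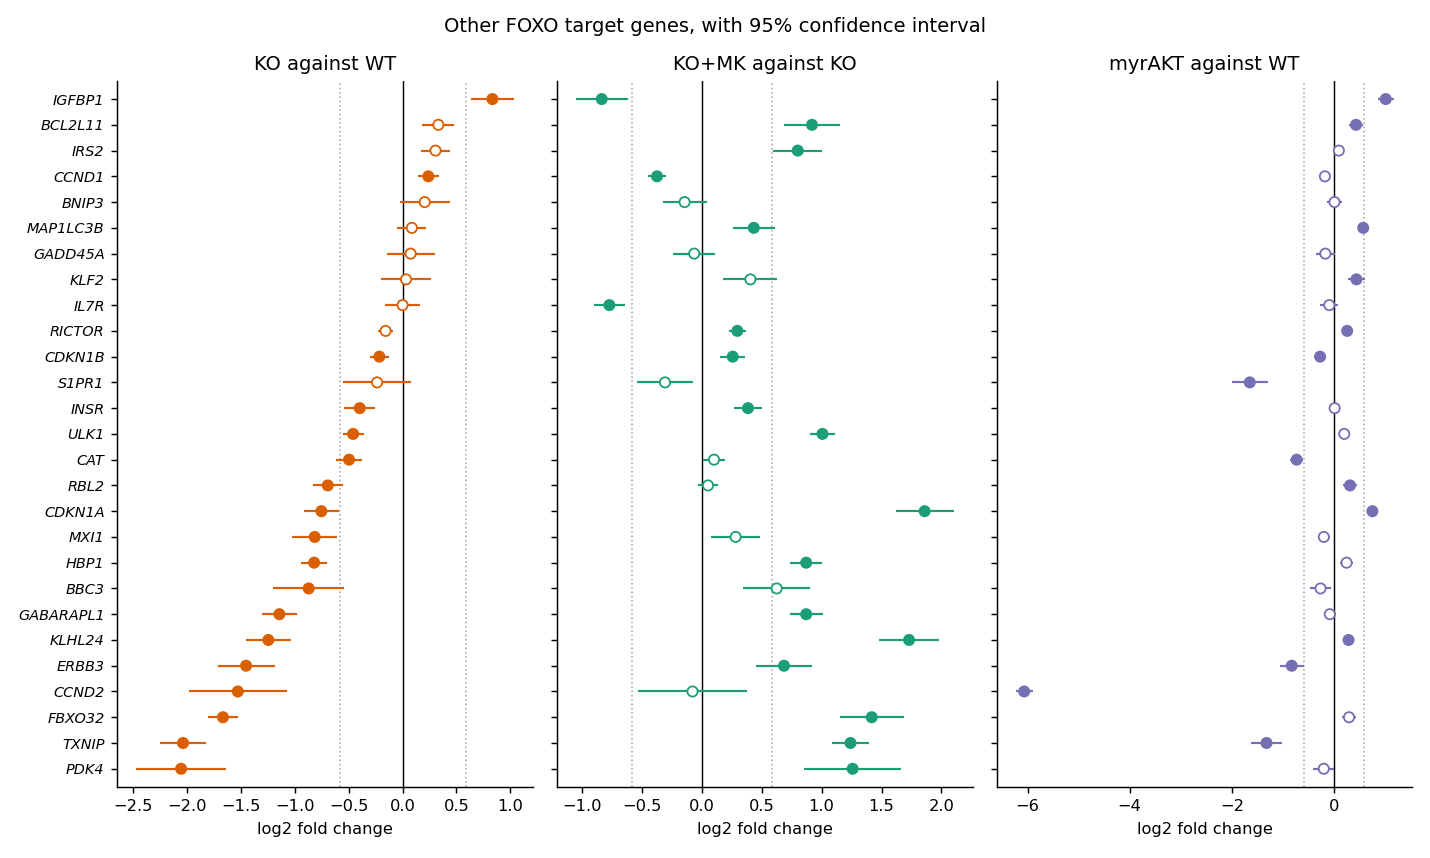
Log2 fold change (x axis, a different range in each panel) of the 27 other FOXO target genes tested, with the 95% confidence interval from edgeR, sorted by KO against WT. Filled points have an adjusted p of at most 0.001 and dotted lines mark 1.5-fold. PDK4, TXNIP and FBXO32 lie lowest in KO against WT and right of 0 with MK2206, and CCND2 stands alone at -6.07 in myrAKT.

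Of 36 genes for proteins that control FOXO activity, among them kinases, phosphatases, 14-3-3 proteins, acetylases, ubiquitin ligases and exporters, 35 were tested (SGK2 was too low). In KO against WT 15 of them rose and 2 fell (32.1% of all genes in either direction), and 1 was called (12.7% of all genes), SKP2, a ubiquitin ligase subunit that targets FOXO1, which rose from 57.96 to 94.98 CPM (0.69 ± 0.058, edgeR adjusted p = 1.94e-06). In myrAKT 6 rose and 3 fell (30.0% of all genes), and 3 were called higher (4.94% of all genes). These counts include AKT1, the gene that the vector of this line carries. Its reads from the vector and from the cells' own gene were not separated, so its rise is no response of a regulator. AKT1 and SGK1, both kinases of FOXO factors, were higher, SGK1 with 44.03 CPM against 26.2 (0.74 ± 0.057, edgeR adjusted p = 7.80e-08). With MK2206 8 rose and 4 fell (21.5% of all genes), and 2 were called, both higher (4.50% of all genes). PIK3R1, a regulatory subunit of PI3K, went from 33.8 to 61.6 CPM (0.89 ± 0.14, edgeR adjusted p = 1.57e-04) and SIRT1, a deacetylase of FOXO factors, from 51.5 to 82.2 (0.70 ± 0.068, edgeR adjusted p = 1.80e-06).

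Of 16 relatives and partners of the 10 genes, 14 were tested (BCL6B and CITED1 were too low). The third sestrin gene, SESN2, was called higher with MK2206, from 10.6 to 24.4 CPM (1.22 ± 0.13, edgeR adjusted p = 5.57e-06), the only call of that list in that comparison (1 of 14, beside 6.53% of all genes). In KO and in myrAKT against WT 3 of the 14 were called lower, beside 8.59% and 8.83% of all genes. Among the TRAIL receptors, the decoy TNFRSF10C fell from 5.49 to 2.64 CPM in KO against WT (-1.07 ± 0.13, edgeR adjusted p = 3.50e-05). The death receptor TNFRSF10B fell from 251 to 164 (-0.63 ± 0.067, edgeR adjusted p = 1.06e-05), which was under the minimum fold without KO2 replicate 2. In myrAKT the decoys TNFRSF10D (-0.88 ± 0.045, edgeR adjusted p = 1.38e-09) and TNFRSF11B (-1.55 ± 0.23, edgeR adjusted p = 4.80e-05) were called lower. CITED4, a relative of CITED2 at 1.97 ± 0.286 CPM in WT, was called lower in KO (-1.24 ± 0.20, edgeR adjusted p = 2.17e-04) and in myrAKT (-1.27 ± 0.23, edgeR adjusted p = 2.77e-04), and neither call held without WT replicate 2 or 3, nor the latter without myrAKT replicate 1 (adjusted p from edgeR 0.00104 to 0.00265).

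Per length of its exons, CITED2 was the most abundant of the 10 mRNAs in WT, at 34.4 ± 0.492 RPKM (CPM divided by kilobases of exon), followed by FOXO3 at 9.73 ± 0.358, CCNG2 at 6.37 ± 0.487, BCL6 at 4.68 ± 0.132 and FOXO1 at 4.29 ± 0.137. FOXO4 stood at 2.46 ± 0.233 RPKM, TNFSF10 at 1.301 ± 0.174, PIK3IP1 at 1.17 ± 0.03305, SESN1 at 0.995 ± 0.0577 and SESN3 at 0.5696 ± 0.0445 (SD, n = 3 each). TNFSF10 and PIK3IP1 overlapped within their spread. In myrAKT SESN3 reached 4.303 ± 0.09997 RPKM, above FOXO4 at 3.26 ± 0.137 in the same cells.

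The genes whose level over the 18 libraries was most like that of each of the 10 were searched among 11177 genes with a mean of at least 5 CPM, by Pearson correlation of log2 CPM. The libraries fall into 6 groups, so these values mainly reflect group means and describe likeness only. CCNG2 was nearest to KLHL24 (r = 0.993), itself on the list of other FOXO targets, and to GOLPH3L (0.988). SESN1 was nearest to FBXO33 (0.983) and SIRT1 (0.982), SESN3 to ZFTRAF1 (0.980) and CMTR2 (0.973), and CITED2 to PPRC1 (0.984) and SMARCA4 (0.976). FOXO1 was most like ARRDC3 (0.971) and ERO1B (0.968), FOXO4 most like RIMKLA (0.972) and ZCCHC24 (0.964), and FOXO3 most like PRTG (0.945) and BDP1 (0.931). For PIK3IP1 the nearest were TMEM192 (0.972) and GDF15 (0.971), for TNFSF10 AMOTL1 (0.957) and UBXN1 (0.947), and for BCL6 CDC42EP4 (0.931) and NIPA1 (0.929). Within the 10, the closest pair in either direction was CCNG2 and CITED2, with r = -0.973 over the 18 libraries.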

How the data were processed

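RNA was sequenced from the 18 libraries after removal of ribosomal RNA. The deposited values are raw counts, for which the authors summed reads over each of 57448 Ensembl genes with no normalization or filter. The submitters' notes name FastQC, Trim Galore, HISAT2, featureCounts, MultiQC and hg38. The tool versions, the annotation and the strand setting are not given in the sources used here, and reads shared by overlapping or near-identical genes may be split by that counting. Symbols and exon lengths came from GENCODE release 44. Promoter windows came from RefSeq.

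Samples were grouped by their labels. A gene was tested if 3 or more of the 18 libraries reached 1 CPM, which left 15587 genes with all 10 members among them. Groups were compared with edgeR 4.0.16 (TMM, quasi-likelihood test, two-sided, Benjamini-Hochberg adjustment over all genes tested) in R 4.3.3, and a call needed an adjusted p no higher than 0.001 together with a 1.5-fold change. Log2 CPM used a prior count of 2. CPM and RPKM were computed here from the deposited counts. DESeq2 1.42.0, limma 3.58.1, Python 3.11.15, numpy 2.4.6, pandas 2.3.3 and matplotlib 3.10.9 served for the alternatives, the tables and the figures. The scripts were tested on simulated counts with known changes. Pairs of replicates differed by a mean chi-square of 2.14 to 9.78 per gene, so none was a repeated library.

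The members and gene lists were chosen with earlier results of these data known. Named genes were the 10 members, GPS2 and AKT1, the 3 called genes with the largest change in each of 3 lists (in KO against WT, myrAKT against WT and KO+MK against KO), and for each member the 2 genes most like it. Some list genes are not reported here. IGFBP1 and CCND1 fall outside this rule and were named after their values were seen. KO against myrAKT was added after seeing the data. Alternatives were DESeq2, other scalings, filters and thresholds, all libraries in 1 fit, a replicate block, the line as a covariate and fits that left out 1 library.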

Additional observations from a re-analysis of the deposited data

Results flagged for a closer look

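SESN3 and TNFSF10 differed between the 2 knockout pools, so that the effect of the knockout against the same WT libraries was not the same in KO1 and KO2 for them. The log2 difference of KO1 from KO2 was -1.24 ± 0.078 (SE, edgeR adjusted p = 4.61e-09) for SESN3 and 1.16 ± 0.21 (SE, edgeR adjusted p = 4.53e-04) for TNFSF10, with n = 3 libraries in each pool. SESN3 was lower in all 3 KO1 libraries and TNFSF10 higher in all 3 than in any KO2 library, and after MK2206 the same order held, with SESN3 at 22.2 ± 3.11 CPM in KO1+MK and 41.5 ± 7.997 in KO2+MK, and TNFSF10 at 2.14 ± 0.318 and 1.04 ± 0.0377 (mean ± SD, n = 3). Each sgRNA set was used for 1 pool, so set and pool cannot be told apart. By Dixon's criterion, the gap of an extreme library to its neighbour over the range of the set, no library was an outlier among the 20 sets of 6 libraries examined, those of the pooled untreated and the pooled treated knockout for the 10 genes, and groups of 3 were not examined in this way. Each set holds both pools. Where the pools differ, as for SESN3 and TNFSF10, the range includes the gap between them, and a deviating library could hardly be flagged.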

How the results depend on the processing

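DESeq2, DESeq2 size factors, upper-quartile factors, library totals, no filter beyond 1 count, a minimum of 10 counts in each library, a single fit of all 18 libraries, other thresholds, the replicate block described below, the line as a covariate and the omission of each library were compared with the results above. For the 10 genes, the genes named from the lists and the counts of calls, 2294 single-gene values kept their direction and their side of the threshold, 45 became calls, 29 lost a call and 27 changed sign, and 191 counts of called genes among the 10 stayed within 1.5 times while 7 did not. The cause of the exceptions was not tested except where the alternative itself lifts the fold or the number of genes tested. Without the minimum fold the called genes among the 10 were 6 in KO against WT, 8 in KO2 against WT and 5 in myrAKT against WT. Over all genes they were then 5006 in KO, 6506 in KO1, 6715 in KO2 and 4677 in myrAKT, each against WT, 3352 in KO+MK against KO, 2985 and 3416 in KO1+MK and KO2+MK against their lines, 1964 in KO1 against KO2, 4994 in KO+MK against WT, 5581 in KO against myrAKT and 2 for the difference in the MK2206 effect. An adjusted p of 0.05 with the fold gave 1359 genes in KO1+MK, 1661 in KO2+MK, 734 in KO1 against KO2 and 7 for the difference in the MK2206 effect, for which DESeq2 called 5. At the threshold of the report, genes called without the filter in KO1 against KO2 and for the difference in the MK2206 effect were 638 and 33, against 408 and 0 with it. Leaving out 1 library gave 3 to 5 called genes of the 10 in KO1 against WT, with 3 without KO1 replicate 3, 1 to 2 in KO1 against KO2, with 1 without KO1 replicate 1, KO1 replicate 2 or KO2 replicate 3, and 0 to 2 genes of all for the difference in the MK2206 effect.

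The changes of sign all concerned values that were not called. The log2 fold change of SESN1 in myrAKT was 0.042 with upper-quartile factors, 0.043 with library totals and 0.0055 with all 18 libraries in 1 fit, and that of CITED2 was -0.011 without the filter. In KO+MK against WT, FOXO3 was at -0.0063 with upper-quartile factors and -0.041 without the filter, and BCL6 at 0.0045 with library totals. Leaving out 1 library gave ranges of -0.038 to 0.016 for FOXO3 in KO2 against WT, -0.046 to 0.059 for SESN1 and -0.0088 to 0.035 for CITED2 in myrAKT, -0.31 to 0.16 for TNFSF10 in KO2+MK against KO2, -0.095 to 0.048 for BCL6 in KO+MK against WT, and -0.028 to 0.050 for FOXO1 and -0.047 to 0.076 for BCL6 in KO1 against KO2. For the difference in the MK2206 effect they were -0.046 to 0.13 for CCNG2, -0.41 to 0.070 for TNFSF10, -0.082 to 0.0064 for CITED2 and -0.0042 to 0.20 for FOXO4. No scaling moved the median of all genes by 0.1 on the log2 scale.

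The groups share replicate numbers, but same-numbered libraries did not deviate together. The correlation of their deviations from the group means ran from -0.52 to 0.30 over 45 pairs, with 12 above 0.1, and 3 of the 18 libraries correlated best with a library of their own number. With the replicate number as a block the called genes of the 10 were 3 in KO against WT, 5 in KO1 and in KO2, 3 in myrAKT, 5 in KO+MK against KO, 6 in KO1+MK, 7 in KO2+MK, 3 in KO1 against KO2 and 2 in KO+MK against WT, and all genes called in KO against WT were 1647 against 1974. Counted among the changes above, the calls lost under the block were those of SESN3 in KO+MK against KO (edgeR adjusted p = 0.00105), TNFSF10 in KO+MK against WT (0.00184) and CITED4 in KO against WT (0.00129), and PIK3IP1 became a call in KO1+MK against KO1 (9.23e-04) and in KO1 against KO2 (3.32e-04). At 23 to 187 counts per library, TNFSF10 and PIK3IP1 had the lowest depth of the 10 genes.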
